A study of Mus musculus with 12 samples.

Results

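The genes described here are 9 transcription factors known for driving or marking mesenchymal identity: Zeb1, Zeb2, Snai1, Snai2, Twist1, Twist2, Prrx1, Foxc2 and Tbx5. They were chosen by symbol, taking every probe that the platform annotation gives to one of them, and 13 of the 46637 probes analysed matched, from 8 of the 9 genes. Snai2 had 0 probes and is not analysed here. A probe was taken as above background on an array where its detection p, measured against negative control beads, was under 0.05, and a gene entered the tests if a probe of it was above background on all 3 arrays of at least 1 group. Of the 8 genes on the array 7 entered, by 8 probes, and Snai1 did not.

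The study measured total RNA with 12 Illumina bead arrays, in 4 groups of 3. MEF are neomycin-resistant primary embryo fibroblasts of strain FVB/N (PMEF_NL in the labels). P5 and P15 are sphere cells at passage 5 and passage 15, of the same strain, which the labels describe as converted cells with MEF cells as their source, and the title of the series names a medium with AlbuMAX I, a lipid-rich serum albumin, as what induced the conversion. MES are J11 embryonic stem cells of strain 129/Sv, taken by the study as its reference, so strain and cell type differ together in each comparison with MES. No gene was deleted and no reprogramming gene is named in the labels of any group. Nothing in the labels says that the 3 arrays of a group came from separate cultures, so p-values measure the spread between arrays, which may be technical.

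Epithelial to mesenchymal transition is the programme by which cells lose junctions and polarity and gain motility, and its reverse is an early step when fibroblasts are reprogrammed to pluripotency. ZEB and SNAIL family zinc finger proteins bind E-box sequences such as CACCTG and repress epithelial genes, with the cadherin gene Cdh1 as the classical target. TWIST proteins are basic helix-loop-helix factors of mesoderm and neural crest, PRRX1 is a paired-related homeobox factor of limb and craniofacial mesenchyme, FOXC2 is a forkhead factor of mesenchyme and vessels, and TBX5 is a T-box factor of heart and forelimb.

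The upstream sequences of 3 of these genes are shown because Twist2 and Prrx1 were below background on all P15 and MES arrays while Twist1, the paralog of Twist2, was not. All 3 were highest in MEF. Over the 12 arrays r was 0.99 for Twist2 with Prrx1, 0.91 for Twist1 with Twist2 and 0.95 for Twist1 with Prrx1. Each is the 250 bases before the transcription start in RefSeq, build GRCm38.p6, read 5′ to 3′ along the gene, with capitals marking the E-box CACCTG, the box named CCAAT or the TATA box TATAAA, on either strand.
Twist2, chr1:91801211-91801460, plus strand: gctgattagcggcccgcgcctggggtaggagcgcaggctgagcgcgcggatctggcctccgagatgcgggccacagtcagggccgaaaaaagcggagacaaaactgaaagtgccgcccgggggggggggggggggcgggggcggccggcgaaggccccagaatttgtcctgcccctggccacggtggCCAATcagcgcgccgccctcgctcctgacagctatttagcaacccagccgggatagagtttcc
Prrx1, chr1:163313651-163313900, minus strand: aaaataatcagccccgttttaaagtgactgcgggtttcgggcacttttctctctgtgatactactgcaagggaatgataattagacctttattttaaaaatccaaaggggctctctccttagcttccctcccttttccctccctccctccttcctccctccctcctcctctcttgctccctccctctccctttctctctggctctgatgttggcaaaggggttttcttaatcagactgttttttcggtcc
Twist1, chr12:33957421-33957670, plus strand: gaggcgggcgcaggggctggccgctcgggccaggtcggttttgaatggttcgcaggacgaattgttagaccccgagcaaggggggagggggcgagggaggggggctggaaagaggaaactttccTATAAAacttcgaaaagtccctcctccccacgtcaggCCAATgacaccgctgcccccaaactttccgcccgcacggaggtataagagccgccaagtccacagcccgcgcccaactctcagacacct
Windows were examined here for 5 of the 9 genes. A gene not examined may still have a start in RefSeq and a window among all mouse windows. The Twist2 window held 23 CpG dinucleotides and the Twist1 window 18, against 4 in that of Prrx1 and a median of 6 over 32851 mouse windows. CCAAT lay at position −63 from the start in Twist2 and −89 in Twist1, and 33.8% of all windows hold it on either strand. TATAAA was found in the Twist1 window, at −126, and is held by 12.4% of all windows. CACCTG, the E-box of the ZEB and SNAIL proteins, was in none of these 3 windows but in the Snai1 window, at −126, and is held by 17.2% of all windows. The motifs do not overlap, and a match describes letters only.

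The arrays were checked first against markers of the labelled cells. All 9 fibroblast markers on the array (Col1a1, Col1a2, Col3a1, Col5a2, Thy1, Pdgfrb, Dcn, Lum and Postn) were above background on each MEF array, with summed raw intensities of 16965.2 to 22302.6, against 392.4 to 3845.2 at P5, 58.5 to 70.8 at P15 and 396.1 to 557.5 in MES. Col1a2, Col5a2 and Lum were below background on all arrays of the 3 other groups. Of 9 embryonic stem cell markers, 7 or 8 were above background on every array of all 4 groups, the MEF arrays included, and Dppa5a was on none. Their summed intensity ran from 21720.4 to 34190.6 at P5, 15853 to 19700 at P15 and 17965.4 to 19285.1 in MES. In MEF it ran from 10707.7 to 27923.1, a range that spans that of MES. The array with the lowest sum, MEF replicate 3, had the highest fibroblast sum. MEF below means the arrays labelled so. Of 8 early endoderm markers 7 were above background on each P5 array, with summed intensities of 9045.7 to 11334.5 against at most 1201.7 elsewhere. Of 5 macrophage and blood markers at most 1 was above background on any array, with Ptprc, Lyz2 and Itgam below it on all 12. Of 5 skeletal muscle markers 3 were above background on each MEF array, with summed intensities of 2761.4 to 4071.1 against 78.8 to 340.7 at P5, 20.9 to 37.6 at P15 and 15.6 to 33.5 in MES. Tnnc1 and Acta1 fell with the member genes (log2 differences of −4.46 and −4.76 at P5 against MEF). Des did not (−0.35 at P5 and −0.37 at P15, neither called). Myod1 and Myog, which define the lineage, were below background on all 12. Of 6 endothelial markers 2 or 3 were above background on each MEF array and 4 on each P5 array, with sums of 160.8 to 478.6 and 1006.2 to 1167.4, and Kdr and Tie1 were below background on all 12. In bulk RNA, fewer cells of a type and less RNA per cell cannot be told apart, and the part of these markers in the results below was not tested. Between 15761 and 19060 probes were above background per array, with the arrays of P15 and MES, all on chip 1, at 15761 to 17234 and those of MEF and P5, on chips 2 and 3, at 17910 to 19060.

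The 7 measured genes fell into those that were at or near the background by P15 and those that stayed above it in every group. Levels are log2 normalised intensities, where the lowest probes above background lay at 4.92 to 5.27, and no level of one gene is set against that of another, since probes differ in brightness. Zeb1 and Twist1 were above background on all 12 arrays. Zeb2 entered the tests through MEF and P5, and Twist2, Prrx1, Foxc2 and Tbx5 through MEF alone, so that these 4 had to be higher there than elsewhere to be measured at all, and the counts below describe the genes and lend no support to a shift of the set. Several of the gene lists set beside them also hold genes that entered through MEF alone, so the same limit applies to their counts.

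Among the zinc finger repressors, Zeb2 showed a wide range. Its brighter probe read 8.15, 8.28 and 9.40 on the 3 MEF arrays, 6.47, 6 and 5.94 at P5, 4.57, 5.13 and 4.8 at P15 and 4.79, 4.58 and 4.58 in MES. The MEF and P5 arrays did not overlap with each other or with the rest, while 1 of 3 P15 arrays and none of 3 MES arrays were above background. Zeb2 was 5.55-fold lower at P5 than in MEF (log2 difference −2.47, SE 0.28, n = 3 per group, limma adjusted p = 1.8e-05) and also lower at P15 (fitted difference −3.78, SE 0.28, adjusted p = 2.06e-07). Since 2 of 3 P15 arrays were not above background, the fold is better given as 10.9, with those arrays set at their lowest signal above background. Against MES it was at least 11.3-fold higher in MEF and at least 2.03-fold higher at P5. Between P5 and P15 it fell by 1.30 (SE 0.28, adjusted p = 0.00145), or by 0.98 with those arrays so set. The second Zeb2 probe was above background on 2 of 12 arrays, both of P15, at 5.14 and 5.37, and on 0 MEF arrays, so the fall was seen by 1 probe only.

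Zeb1, the close paralog of Zeb2, read 8.81, 8.77 and 9.16 in MEF, 8.26, 8.42 and 8.11 at P5, 8.20, 8.16 and 8.34 at P15 and 8.36, 8.43 and 8.19 in MES. MEF lay above all other arrays, and the 3 other groups overlapped. The difference from MEF was −0.65 at P5 (SE 0.14, adjusted p = 0.00245) and −0.68 at P15 (SE 0.14, adjusted p = 7.85e-04), past the adjusted p but under the 2-fold used here for a call. The interval of P15 minus MES ran from −0.39 to 0.21 and that of P15 minus P5 from −0.33 to 0.27 (95%, from the model). Its second probe was above background on 0 of 12 arrays.

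Whether Zeb2 moved by more than Zeb1 was tested within arrays. The log2 change of Zeb2 exceeded that of Zeb1 by −1.82 from MEF to P5, with no overlap between arrays of the groups. An exact two-sided permutation test gave p = 0.1, also 0.1 after Benjamini-Hochberg adjustment over 4 such tests, which is the smallest that 3 arrays against 3 allow, so the design could not reach 0.05. The 4 tests include Twist2 against Twist1, which is not read here. Twist2 was measured only through MEF and was not above background at P15.

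Snai1, the SNAIL protein that starts the transition in many embryonic tissues, was near the background in all groups. Its probe read 4.92, 4.70 and 4.81 in MEF, 4.79, 5.16 and 5.12 at P5, 5.20, 5.02 and 5.52 at P15 and 4.93, 4.84 and 4.81 in MES. It was above background on 2 of 3 arrays at P5 and 2 of 3 at P15, and on none in MEF or MES. The low signal leaves no order between groups that these arrays can resolve, and no test was made.

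The TWIST factors differed in where they ended. Twist2 read 7.61, 8.12 and 8.79 in MEF, 6.29, 5.61 and 4.89 at P5, 4.51, 4.43 and 4.50 at P15 and 4.42, 4.50 and 4.87 in MES. All P15 and MES arrays and 1 of 3 P5 arrays were below background, and MEF overlapped with none. Twist2 was 5.96-fold lower at P5 than in MEF (log2 difference −2.57, SE 0.32, adjusted p = 4.35e-05) and at least 8.10-fold lower at P15 (adjusted p = 7.41e-07). Against MES it was at least 8.32-fold higher in MEF and at least 1.40-fold higher at P5 (adjusted p = 0.018).

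Twist1 read 7.41, 7.77 and 8.13 in MEF, 6.57, 6.36 and 6.5 at P5, 6.46, 6.39 and 6.53 at P15 and 6.72, 6.67 and 6.61 in MES. MEF stood above the rest and the 2 sphere groups overlapped. Twist1 was 2.45-fold lower at P5 (−1.29, SE 0.16, adjusted p = 3.62e-05) and 2.47-fold lower at P15 (−1.31, SE 0.16, adjusted p = 1.13e-05). From P5 to P15 the difference was −0.01, with an interval of −0.35 to 0.33, and from MES to P15 it was −0.20, with an interval of −0.54 to 0.13.

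Prrx1 and Foxc2 followed each other closely, with r = 1.00 between their levels over the 12 arrays when rounded to 2 decimals, a description of arrays that share groups and chips. Prrx1 read 7.84, 8.18 and 9.27 in MEF, 5.78, 5.11 and 4.63 at P5, 4.37, 4.45 and 4.44 at P15 and 4.57, 4.51 and 4.51 in MES. Foxc2 read 7.61, 8 and 8.86 in MEF, 5.45, 5.10 and 4.88 at P5, 4.42, 4.58 and 4.41 at P15 and 4.46, 4.52 and 4.57 in MES. For both, MEF lay far above P5, 2 of 3 P5 arrays were above background, and no array of P15 or MES was.

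Prrx1 was 9.55-fold lower at P5 than in MEF (log2 difference −3.26, SE 0.32, adjusted p = 6.76e-06) and at least 9.68-fold lower at P15 (adjusted p = 3.9e-07). Its second probe, also measured, gave −2.81 (SE 0.27) at P5, so both probes of Prrx1 fell. Foxc2 was 8.07-fold lower at P5 (−3.01, SE 0.25, adjusted p = 2e-06) and at least 8-fold lower at P15 (adjusted p = 1.29e-07). MEF exceeded MES by at least 9.94-fold in Prrx1 and at least 8.22-fold in Foxc2. Between P5 and P15 Prrx1 was −0.75 (adjusted p = 0.058) and Foxc2 −0.67 (adjusted p = 0.0331), neither a call, and both are fitted values with no P15 array above background. Without P5 replicate 3 Prrx1 became a call at −1.03.

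Tbx5 was a dim signal seen in MEF alone. Its brightest probe read 5.81, 6 and 6.37 in MEF, 4.85, 4.83 and 4.81 at P5, 4.75, 4.56 and 5.21 at P15 and 5.04, 4.8 and 4.54 in MES, with none of the last 9 arrays above background. It was at least 2.17-fold lower at P5 (adjusted p = 2.38e-04), at least 1.87-fold lower at P15 and at least 1.92-fold higher in MEF than in MES. Of its other probes, 1 was above background on 2 of 3 MEF arrays and 1 on a MEF array, replicate 3. Of 5 cardiac markers set beside it 3 were above background on each MEF array, with summed intensities of 530.3 to 743.5 against 93.8 to 187.4 in the other groups, and Nkx2-5 and Myh6 were not. Tnnt2, a troponin gene, read 8.22, 8.80 and 9.57 in MEF and was at least 15.2-fold lower at P5. Of the 4 cardiac markers measured against MEF, it was the 1 called lower at P5 and at P15. None was called higher at P5, and 1 was at P15, Myl7 (0.77 at P5 and 1.47 at P15). Of all genes, 6.98% and 14.3% were called lower and 4.86% and 12.2% higher at P5 and P15. The list medians were −0.2 at P5 and 0.54 at P15.

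In counts, 6 of the 7 measured genes were called lower at P5 than in MEF, at an adjusted p under 0.05 over all 9343 genes together with at least 2-fold, where 6.98% of all genes were called lower and 11.8% in either direction. The same 6, all but Zeb1, were called lower at P15 (14.3% of all genes lower, 26.5% in either direction) and higher in MEF than in MES (13% higher, 8.27% lower, 21.3% in either direction). At P5 against MES 2 were called higher, Zeb2 and Twist2 (9.96% of all genes higher, 4.69% lower, 14.7% in either direction). From P5 to P15 Zeb2 and Twist2 were called lower, Twist2 by at least 1.36-fold (10.3% of all genes lower, 6.73% higher, 17% in either direction). These 2 calls, in both comparisons, were lost with the authors' log2 table, with an offset of 50 and with scaling on detected probes, and without P5 replicate 1 Twist2 was 0.66 above MES and not called. With the authors' table Twist1 at P5 against MEF and Tbx5 also came under 2-fold, and with median scaling over all probes Zeb1 passed it (−1.23 at P15 against MEF, 1.10 for MEF against MES). At P15 against MES 0 were called in limma, where 6.9% of all genes were (3.36% higher, 3.54% lower), and 0 had an adjusted p under 0.05. The median log2 difference of the 7 was −2.47 at P5 against MEF, beside 0.05 over all genes, and at P15, with the 4 genes below background there at their bound, −3, beside 0.13. The arrays of the 2 groups did not overlap for any of the 7 genes in the comparisons of MEF with P5, P15 and MES, where 51.6%, 69.8% and 66.2% of all genes did not. They did not overlap for 5 genes at P5 against MES (64.2% of all genes), for 2 at P15 against MES (42.9%) and for 4 at P15 against P5 (66.6%). The comparisons that use MEF share its 3 arrays and are not independent of each other. P15 and MES lay on chip 1 and MEF and P5 on chips 2 and 3, so chip and group cannot be told apart in any comparison of MEF or P5 with P15 or MES, the calls of Zeb2 and Twist2 at P5 included.

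**Figure D1:**
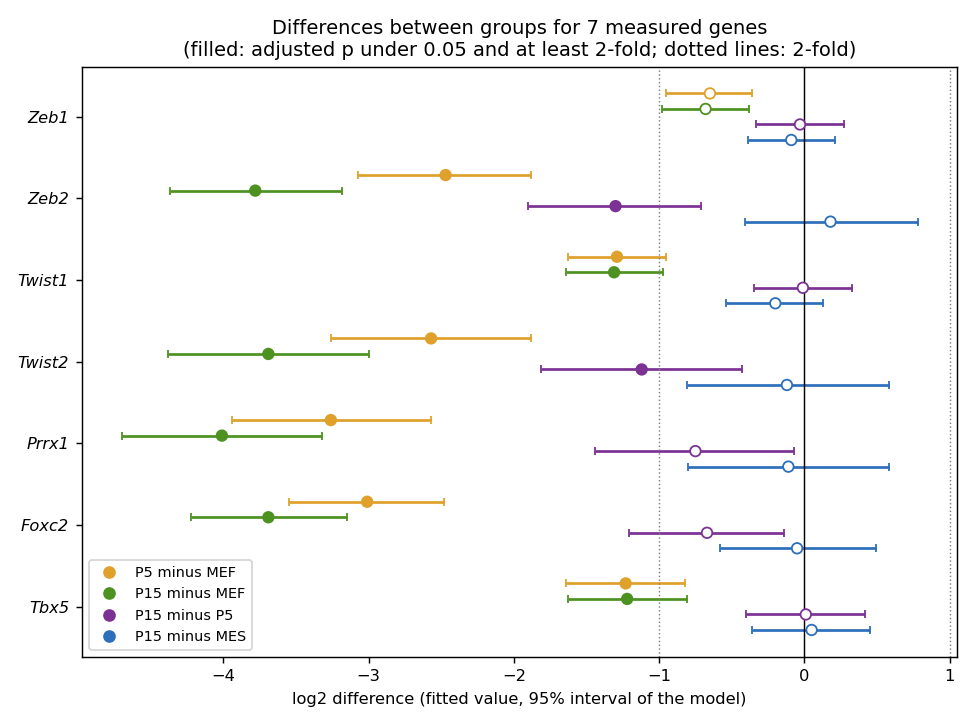
Log2 difference (horizontal axis) of the 7 measured genes in 4 comparisons, with the 95% interval of the model, filled where called. All 7 fitted differences from MEF lie below 0 at P5 and at P15. The P15 points of Twist2, Prrx1, Foxc2 and Tbx5, and the P5 minus MEF point of Tbx5, rest on arrays below background, where the text gives bounds. For Zeb2, 1 of 3 P15 arrays was above background. The differences of P15 from MES lie around 0.

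P5 and MEF shared chips, which allows the comparison within chips. On chip 2, with 2 arrays against 2, the difference was −1.98 for Zeb2, −1.91 for Twist2, −2.56 for Prrx1, −2.53 for Foxc2, −1.13 for Twist1 and −0.45 for Zeb1, and Tbx5, below background on both P5 arrays, was at least 1.98-fold lower. On chip 3, with 1 array of each and so no test, it was −3.45 for Zeb2, −1.63 for Twist1 and −1.06 for Zeb1. The other 4 genes were below background on that P5 array, and were lower by at least 13.9-fold for Twist2, 19.4-fold for Prrx1, 14.6-fold for Foxc2 and 2.60-fold for Tbx5. All 7 kept their direction on both chips, and the 6 calls held with chip as a fixed block.

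The P5 arrays did not agree among themselves on the genes that fell most, and neither did the MEF arrays. The SD was 0.68 in MEF and 0.29 at P5 for Zeb2, and 0.59 and 0.70 for Twist2. For Prrx1 it was 0.74 and 0.58, and for Foxc2 0.64 and 0.29. Each of these was highest on MEF replicate 3, the MEF array with the lowest embryonic stem cell marker sum. The cause was not tested. Twist2 lay at −1.88, −2.56 and −3.28 from the MEF mean on the 3 P5 arrays (log2), and Prrx1 at −2.65, −3.32 and −3.80, where the last array of each was below background. The same array, replicate 1, was highest and replicate 3 lowest for Zeb2, Twist2, Prrx1 and Foxc2, and also for the fibroblast genes Col1a1, Thy1 and Vim. Col1a1, a chain of type I collagen, lay at −5.30, −5.98 and −7.44 from the MEF mean, and for Thy1, a fibroblast surface marker, the differences were −2.19, −2.91 and −5.64. The summed fibroblast markers were 3845.2, 2212.4 and 392.4 on these arrays. Zeb1 and Twist1 did not follow that order, and Tbx5 was below background on all 3. Leaving out P5 replicate 3 gave −2.22 for Twist2 and −2.98 for Prrx1, and 6 genes were called without any 1 array of either group.

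**Figure D2:**
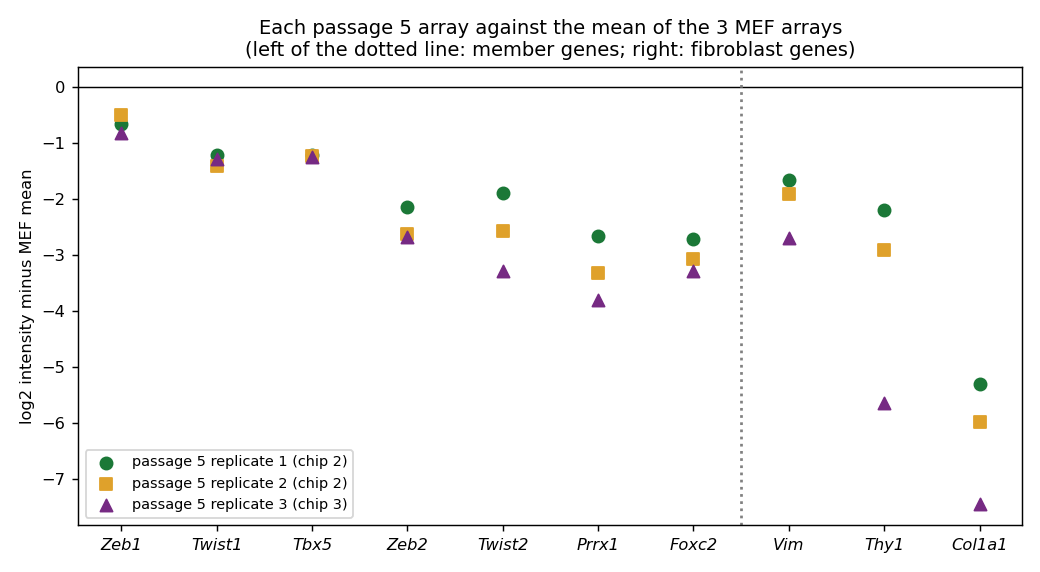
Log2 intensity on each P5 array minus the mean of the 3 MEF arrays (vertical axis) for 7 member genes and 3 fibroblast genes. Replicate 1 on chip 2 lies highest and replicate 3 on chip 3 lowest for Twist2, Prrx1, Foxc2, Thy1 and Col1a1, with Twist2 from −1.88 to −3.28, where replicate 3 is below background for Twist2, Prrx1 and Foxc2, while Twist1 lies between −1.20 and −1.41.

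The genes whose levels were most like each factor over the 12 arrays were found by Pearson r, as a description with no test. Those nearest to Zeb2 were Cald1, the actin-binding caldesmon (r = 0.995), the homeobox gene Shox2 (0.991) and Runx1t1 (0.99). Those nearest to Twist2 were Cd44, the hyaluronan receptor (0.997), Hoxc8 (0.996) and the chemokine Cxcl14 (0.995). Prkg1 and Tagln, the smooth muscle protein transgelin, lay nearest to Prrx1 (0.998 each), and Chst7 and Zic1 to Foxc2 (0.997 each). Pdlim7 lay nearest to Twist1 (0.99), Adam12 to Tbx5 (0.978) and Bcl2 to Zeb1 (0.966).

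Relatives in the same gene families were tested beside them. Of 12 listed, 9 were on the array and 4 were measured. Of these, 0 were called in limma between P5 and MEF or between P15 and MEF, where 11.8% and 26.5% of all genes were. Tbx3, a T-box gene also active in embryonic stem cells, read 10.38 to 11.08 in MEF and 11.38 to 11.40 at P5, with a log2 difference of 0.59. Tbx2 (−0.50) and Tbx4 (−0.52) were near the background. Tbx4, a hindlimb factor, was called higher in MEF than in MES (fitted difference 1.00, adjusted p = 8.23e-05, at least 1.34-fold, with 0 of 3 MES arrays above background). Snai3 was at 0.27 at P5 and 0.61 at P15, and was called lower in MEF than in MES (−1.47) and lower at P5 than in MES (−1.20).

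TGF-beta signalling is known to induce many of these factors. Of 21 measured in the TGF-beta and BMP list, 7 were called lower and 1 higher at P5 against MEF, and 9 lower and 2 higher at P15 (list medians −0.57 and −0.93), with 13 and 10 not called. Of all genes, 6.98% and 14.3% were called lower and 4.86% and 12.2% higher. The ligand Tgfb3 fell by 4.4 at P5 and 4.47 at P15, and the ligand Tgfb2 by 3.84 and 4.61. Tgfb3 was above background on 2 of 3 P5 arrays and Tgfb2 on 1 of 3 P15 arrays, so those are fitted values. Ltbp1, which holds latent TGF-beta in the matrix, fell by 2.93 at P5 and 4.10 at P15, and Tgfb1 by 1.95 at P5 and at least 6.42-fold at P15. Bmp7 was the gene called higher at both passages (1.21 and 1.43), joined at P15 by Smad6, an inhibitory SMAD (1.07). At P15 against MES, 1 was higher, Bmp7 (1.24), and 2 lower, Tgfb1 (at least 3.02-fold) and Bmp4 (−1.14), where 3.36% of all genes were higher and 3.54% lower.

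Helix-loop-helix genes set beside the TWIST factors moved in both directions. Tcf4, an E protein that pairs with TWIST proteins, fell by 1.08 at P5 and 1.62 at P15. Id3, which sequesters E proteins, fell by 1.53 and 1.12, and Id2, of the same kind, was −0.64 at P5 and at least 4.08-fold lower at P15. Tcf15, a helix-loop-helix factor of paraxial mesoderm, rose by 1.48 at P5 and 2.90 at P15. Id1 was lower than in MES in all 3 other groups, by 1.90 in MEF, 2.27 at P5 and 1.49 at P15. Of the 7 measured in this list, 1 was called higher and 2 lower at P5 against MEF, and 1 higher and 3 lower at P15. Of all genes, 4.86% were called higher and 6.98% lower at P5, and 12.2% higher and 14.3% lower at P15.

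Corepressors and stability factors of ZEB and SNAIL proteins were also set beside the members. Of 14 measured, 0 were called in limma at P5 against MEF, and at P15 2 were higher, the acetyltransferase Kat2b (2.06) and the deubiquitinase Usp9x (1.37), and 1 lower, Gsk3b, the kinase that marks SNAIL for degradation (−1.55). Of all genes, 11.8% were called in either direction at P5, and 12.2% higher and 14.3% lower at P15. The list medians were 0.10 at P5 and 0.18 at P15, beside 0.05 and 0.13 over all genes.

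Mesenchymal genes are known to rise in the transition. Of 22 measured, 19 were called lower and 0 higher at P5 against MEF, and 19 lower and 0 higher at P15 (medians −2.21 and, with undetected genes at their bound, −3.56), where 6.98% and 14.3% of all genes were called lower. Some of the 22, such as Col1a2 and Postn, entered the tests through MEF alone. The list was also chosen with earlier results of these data known, so its counts lend no support to a shift of the list. Col1a1 fell by 6.24 at P5 and was at least 267-fold lower at P15. Axl, a receptor kinase, changed by −4.19 and −7.38, and Lox, which cross-links collagen, by −4.17 and −8.09. Axl was above background on 1 of 3 P15 arrays and Lox on 2 of 3, so their P15 differences are fitted values. Col3a1 changed by −5.13 at P5 and was at least 38.4-fold lower at P15. Cdh2, the mesenchymal cadherin, fell by 1.12 at P5 and was −0.29 at P15, both against MEF. The 3 not called were Sparc (0.04), Postn (−0.96) and Fgfr1 (−0.18) at P5, and Cdh2, Postn (−0.93) and Fgfr1 at P15, where Sparc fell by 2.44. At P15 6 of the 22 were below MES and 0 above it, where 3.54% of all genes were called lower and 3.36% higher. Among the 6 were Lox (−3.24), Axl (−2.84), Tnc (−2.10) and Col1a1 (at least 2.36-fold).

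Epithelial genes are the classical targets of repression. Of 23 measured, 6 were called higher and 1 lower at P5 against MEF, and 6 higher and 4 lower at P15 (medians 0.28 and 0.26, or 0.23 and 0.26 with undetected genes at their bound). Of all genes, 4.86% and 12.2% were called higher and 6.98% and 14.3% lower. Cdh1 read 9.55, 9.23 and 8.66 in MEF, 9.02, 9.07 and 8.87 at P5, 8.42, 8.35 and 8.76 at P15 and 8.94, 8.85 and 8.89 in MES. It was thus above background throughout, with differences from MEF of −0.16 at P5 and −0.64 at P15, neither called.

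The epithelial genes called higher at P5 included the junction gene Tjp3 (1.75), the keratin gene Krt8 (1.55) and the protease inhibitor gene Spint1 (1.24). Cdh3, P-cadherin, was lower (−1.35). At P15 the mucin gene Muc1 was higher (1.80), while Grhl2, an epithelial transcription factor, was lower (−2.17), as were Cdh3 (−1.72) and the splicing regulator Esrp1 (at least 1.83-fold). Against MES, P15 had 6 of 23 lower and 0 higher, led by Krt8 (−2.55) and Krt18 (−1.72), where 3.54% of all genes were lower and 3.36% higher.

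Other transcription factors of connective tissue and limb were set beside the members. Of 24 measured, 12 were called lower and 1 higher at P5 against MEF, and 13 lower and 1 higher at P15 (medians −0.93 and, with undetected genes at their bound, −1.05), with 11 and 10 not called. Of all genes, 6.98% and 14.3% were called lower and 4.86% and 12.2% higher. Here too some genes entered the tests through MEF alone, so the counts lend no support to a shift of the list. The 4 with the most change at P5 were Nfix (−4.02), Zfhx4 (−3.25), Nfib (−2.24) and Sox9 (−2.19). Dlx3 was the gene called higher, at least 2.25-fold at P5 and at least 2.00-fold at P15. At P15 against MES 22 of the 24 were not called, and the 2 called, both higher, were Meox1 (1.85) and Klf4 (1.01). Of all genes, 3.36% were called higher there and 3.54% lower.

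**Figure D3:**
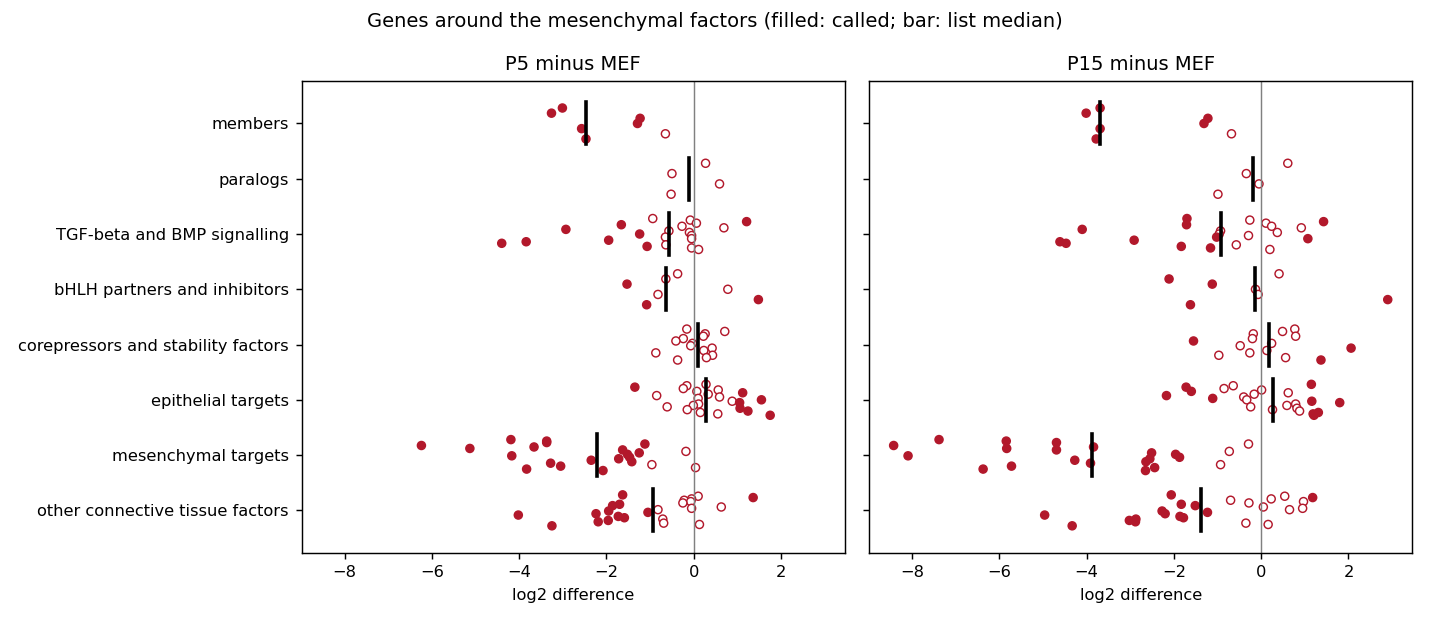
Log2 difference (horizontal axis) of each measured gene of 8 lists, at P5 and at P15 against MEF, filled where called, with bars for list medians. The members and the mesenchymal targets lie mostly below 0 (medians −2.47 and −2.21 at P5), and the epithelial targets lie on both sides of 0 (median 0.28).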

How the data were processed

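The members and gene lists were chosen with earlier results of these data known. Per the file headers, the deposited table of raw intensity holds bead summaries that were not normalized between arrays, with a detection p-value per probe, and its values below 0 show that background had been subtracted. The log2 table deposited by the authors has the same value range on every array, as after quantile normalization, and its tool is not given in the sources used here. Here raw intensities were normalized by the neqc function (limma 3.58.1, R 4.3.3, offset 16). Of 46657 probes, 20 were left out, since they hold dates in place of values, and 14 of these had a gene. The annotation gave 22380 probes 1 symbol and 24277 none, and all 22380 matched RefSeq by Entrez ID. Probes above background (detection p under 0.05) on all 3 arrays of a group were kept, 19444 in all, and each of 9343 genes was represented by its brightest.

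All 12 arrays entered 1 linear model of group means (lmFit, contrasts.fit, eBayes, 8 residual and 4.98 prior degrees of freedom), for 6 comparisons, with Benjamini-Hochberg adjustment over all genes. Where no array of a group was above background, the gene has a bound, "at least N-fold", against the lowest signal above background. Named were all members, all measured relatives, up to 4 called genes per list and comparison with the largest change (or 2 where none was called), the 3 genes nearest to each member by r, and Col1a1, Thy1, Vim, Pou5f1, Cdh1 and Cdh2. Not all are printed. Smad6, Sparc, Postn, Fgfr1, Tnnt2, Myl7, Tnnc1, Acta1 and Des are named, after their values were seen, beside the rule where a count of few genes needed them. The pipeline was tested on simulated data. Equal replicate numbers do not pair arrays: deviations of same-numbered arrays correlated at 0.04 to 0.27 between P5 and MEF and between −0.09 and 0.20 elsewhere. The number of arrays limits the precision.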

Additional observations from a re-analysis of the deposited data

How the results depend on the processing

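Of 735 member differences recomputed under other settings, 715 kept their direction and 676 also their side of the threshold. The members called, 6 in the main analysis, were 4 to 6 at P5 against MEF, 5 to 7 at P15 against MEF and 4 to 7 for MEF against MES over the settings run. For other counts the cause of a change was not tested. With every kept probe as a row, the features are 19444 probes, of which 12156 have a gene, so counts are of probes and not set against those of genes: 1933 were called for P5 against MEF, 5528 for P15 against MEF, 4091 for MEF against MES, 2988 for P5 against MES, 1412 for P15 against MES and 4082 for P15 against P5. With the authors' log2 table the genes called were 1281 for MEF against MES, 786 for P5 against MES, 315 for P15 against MES and 919 for P15 against P5, and with an offset of 50 they were 1313, 810, 328 and 938. With median scaling over all probes they were 2794 for P5 against MES (2748 higher, 46 lower) and 3187 for P15 against P5 (116 higher, 3071 lower), and the median of all genes moved from −0.052 to 0.606 and from 0.007 to −0.678. The split of calls moved as well: 454 higher and 652 lower at P5 against MEF became 907 and 510, 1140 and 1335 at P15 against MEF became 415 and 2198, and 1219 and 773 for MEF against MES became 1922 and 205. Scaling to the median of probes above background everywhere, chosen after the data were seen, gave medians of −0.22 and 0.176, with 740 higher and 1001 lower at P5 against MES and 1217 and 742 at P15 against P5.

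The members called at P5 against MES and at P15 against P5 numbered 0 with the authors' table, with the offset of 50 and with scaling on detected probes. Leaving out 1 array gave 1 to 2 at P5 against MES and 1 to 3 at P15 against P5. Without P5 replicate 1, P5 replicate 2, MES replicate 1 or MES replicate 2, Twist2 was no longer called against MES, at 0.66 to 1.00.

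Uncalled differences near 0 changed sign. Under median scaling over all probes, P5 minus MES was 0.78 for Zeb1 and 0.64 for Twist1, and P15 minus P5 was −0.09 for Tbx5. On detected probes, P5 minus MES was −0.03 for Prrx1, −0.08 for Foxc2 and −0.73 for Tbx5, and P15 minus P5 was 0.06 for Foxc2. With the authors' table Tbx5 was −0.03 in the latter, and 0 with chip as a random block. With 1 array left out, Tbx5 ran from −0.09 to 0.16 at P5 minus MES, from −0.14 to 0.19 at P15 minus MES and from −0.18 to 0.15 at P15 minus P5, and Twist2 from −0.20 to 0.02 at P15 minus MES. Zeb1 ran from −0.14 to 0.01 at P5 minus MES. At P15 minus P5 Zeb1 ran from −0.10 to 0.05 and Twist1 from −0.07 to 0.03.

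With the replicate number as a block, the members called were 6, 6, 6, 2, 0 and 2 in the 6 comparisons, and the block changed no member's call. The genes called with the replicate block were 1108, 2476, 1994, 1371, 648 and 1592. Tbx5 and Twist1 lie near 2-fold: Tbx5 was −0.71 at P5 against MEF with the authors' table and −0.69 with the offset of 50, and Twist1 was 0.92 for MEF against MES without MEF replicate 3. Signals near the background limit what can be said of Snai1 and Tbx5.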
